A study of Mus musculus with 21 samples.

Results

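The SR splicing factors are 10 genes of the Srsf family, *Srsf1*, *Srsf2*, *Srsf3*, *Srsf4*, *Srsf5*, *Srsf6*, *Srsf7*, *Srsf9*, *Srsf10* and *Srsf11*, taken from the 51467 genes of the count tables by matching each symbol to its Ensembl identifier. All 10 passed the filter on low counts and were among the 14518 genes tested. The cells were V6.5 mouse embryonic stem cells (ESCs), a line kept in the naive pluripotent state, grown in serum with LIF/2i. There were 3 wild-type cultures and 4 *Ddx6* KO cultures, 2 from each of 2 clones that were made from V6.5 with CRISPR-Cas9. The study describes a small insertion in a clone and a large deletion in the other, so that the KO group stands for 2 clonal lines of the same parent. Every culture, wild type included, was labelled with 500 µM 4-thiouridine (4sU), a uridine analogue that enters newly made RNA, for 30 min. Its RNA was then split into a total RNA library, depleted of ribosomal RNA, and a library of the pulled-down 4sU RNA. The question the design addresses is how much of a change in mRNA level comes with a change in new RNA, and how much with a change of total RNA relative to new RNA, which the study uses as a measure of mRNA stability.

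SR proteins carry RNA recognition motifs and a tail rich in arginine and serine, and they bind exonic enhancers and recruit U1 and U2AF to nearby splice sites. They are best known for controlling their own abundance. An SR protein in excess promotes inclusion of a poison exon in its own transcript, or splicing of an intron in its last exon, and the product carries a premature stop codon and is removed by nonsense-mediated decay (NMD). Many of these exons are ultraconserved. DDX6 is a DEAD-box RNA helicase that acts in translational repression, including that of miRNA targets, and binds components of the decapping complex. For targets of the main ESC miRNA family, the study found little change of mRNA stability in *Ddx6* KO cells.

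Depth was between 2441639 and 3570192 counts for the 4sU libraries and between 5724179 and 7369651 for total RNA. Before TMM scaling, 3 counts were thus worth at most 1.23 and 0.524 CPM. Spike-in sequences listed in the tables had 0 counts, and every level and ratio is therefore relative to the other genes of a library. Total RNA of the targeted gene *Ddx6* was at 333, 383 and 391 CPM in wild type and in the KO cultures at 57.2 and 67.7 CPM (clone 1) and 23.1 and 21.5 CPM (clone 2). The summed total RNA of 6 ESC markers was 3059 to 3173 CPM in wild type and 3570 to 3790 CPM in *Ddx6* KO, and all 6 were detected. The 6 feeder fibroblast markers summed to 3.33 to 5.73 CPM in wild type and 10.8 to 12.6 CPM in *Ddx6* KO, with *Dcn* at 0 counts in every total RNA library. The 4 endoderm markers summed to 5.51 to 8.33 and 6.04 to 7.68 CPM. Of these only *Gata4* passed the filter, and its total RNA was higher in *Ddx6* KO (log2 0.65, adjusted p = 0.028 by edgeR). Means of *Sox17* (1.94 and 0.57 CPM) and *Gata6* (0.77 and 0.28 CPM) were lower in *Ddx6* KO. The part of these marker differences in the results was not tested. CPM, the count of a gene relative to the library total after TMM scaling, is the unit of level unless stated.

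The annotation (Gencode M21, GRCm38) lists 85 transcripts of the 10 genes, of which 29 are protein coding, 15 are classed as NMD targets and 26 as retained introns. Of the 10 genes, 9 had an NMD transcript, the exception being *Srsf10*, and 8 had a retained-intron transcript. Among the 12110 tested protein-coding genes with annotation, 28.5% had an NMD transcript and 58.7% a retained-intron transcript. Poison exons were taken as internal exons of an NMD transcript that overlap no exon of the gene's principal transcript. This gave 12 exons in 7 genes, and the annotated in-frame stop codon lay inside 6 of them. The following sequences are shown because exons of this kind are how SR genes are known to limit their own output. Each line runs from the 5′ end of the poison exon to its stop codon, which is in capitals.

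Srsf3: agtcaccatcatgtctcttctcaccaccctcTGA
Srsf4: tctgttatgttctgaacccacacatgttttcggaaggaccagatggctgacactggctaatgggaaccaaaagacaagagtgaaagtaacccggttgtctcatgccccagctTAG
Srsf6: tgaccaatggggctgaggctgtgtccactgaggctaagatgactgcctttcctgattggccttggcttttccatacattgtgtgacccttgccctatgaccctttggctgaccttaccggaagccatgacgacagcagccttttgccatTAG
Srsf7: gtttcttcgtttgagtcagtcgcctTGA
Srsf9: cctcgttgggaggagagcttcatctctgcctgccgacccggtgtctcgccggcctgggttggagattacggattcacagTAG
Srsf11: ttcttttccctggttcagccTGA

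On GRCm38 the whole exons lie at chr17:29039454-29039909 on the plus strand (*Srsf3*, 456 bases), chr4:131884276-131884482 on the plus strand (*Srsf4*, 207 bases), chr2:162932815-162933082 on the plus strand (*Srsf6*, 268 bases), chr17:80204622-80205081 on the minus strand (*Srsf7*, 460 bases), chr5:115328347-115328704 on the plus strand (*Srsf9*, 358 bases) and chr3:158024123-158024231 on the minus strand (*Srsf11*, 109 bases). In *Srsf3*, *Srsf7* and *Srsf11* the stop codon began at base 32, 26 and 21 of the exon. In *Srsf9*, *Srsf4* and *Srsf6* it began at base 80, 113 and 150.

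Most of these exons lay outside the exons the authors counted, which came from a basic gene annotation. Of the 12, 1 exon of *Srsf2* was counted whole, 165 of the 268 bases of the *Srsf6* exon were counted and 10 exons were not counted. The counted exons of *Srsf2* and *Srsf6*, and an uncounted exon of *Srsf9*, overlap exons of protein-coding transcripts. The *Srsf2* exon held no annotated stop. Among the 12, the *Srsf4* entries chr4:131886107-131886304 and chr4:131886131-131886304 overlap each other. A transcript with a poison exon still contributed reads from the exons it shares with the coding transcript, so the counts of a gene mix productive and unproductive transcripts. Their shares were not measured here. For *Srsf1*, *Srsf2*, *Srsf5*, *Srsf6*, *Srsf10* and *Srsf11* the counted exons held 196, 104, 129, 165, 2087 and 118 bases outside the principal transcript, and for the other 4 genes none.

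In wild-type total RNA the SR genes were abundant, and per length of counted exon *Srsf2* led. *Srsf2* was at 216 ± 28.2 CPM per kb (SD, n = 3), *Srsf7* at 181 ± 4.80, *Srsf1* at 178 ± 6.25 and *Srsf5* at 137 ± 4.35. *Srsf6* followed at 102 ± 4.81 CPM per kb, *Srsf11* at 92.6 ± 2.04, *Srsf3* at 89.5 ± 2.24 and *Srsf9* at 64.7 ± 2.85. *Srsf4* at 42.6 ± 5.69 and *Srsf10* at 22.4 ± 1.02 CPM per kb were lowest. *Srsf7* and *Srsf1* overlapped between cultures, while *Srsf11* and *Srsf3* differed by less than the sum of their SDs. These levels put the 10 genes between the 73.7th and the 98.3rd percentile of tested genes. The level of *Srsf10* depended on the length used, being 34.9 ± 1.59 CPM per kb over its principal transcript, where it overlapped *Srsf4*.

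The order differed in 4sU RNA. *Srsf2* was again highest, at 677 ± 26.8 CPM per kb (SD, n = 3) in wild type, followed by *Srsf5* at 454 ± 15.2, *Srsf7* at 379 ± 11.6, *Srsf1* at 309 ± 2.72 and *Srsf6* at 285 ± 15.0. *Srsf3* was at 222 ± 11.4 CPM per kb, *Srsf10* at 74.3 ± 1.94, *Srsf11* at 62.2 ± 2.42, *Srsf4* at 40.3 ± 6.93 and *Srsf9* at 32.5 ± 4.33. Only *Srsf4* and *Srsf9* among neighbours in this order overlapped. These levels add both sequencing runs, and the paired-end run gave higher levels for *Srsf3*, *Srsf5* and *Srsf10*, as given below. The order with a run alone was not computed. In *Ddx6* KO the order of the 4sU levels was the same, and *Srsf1* at 198 ± 4.42 CPM per kb (SD, n = 4) overlapped *Srsf6* at 194 ± 3.92. In total RNA of *Ddx6* KO, *Srsf1* at 178 ± 5.30 CPM per kb stood above *Srsf7* at 144 ± 4.62 in every culture.

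Most SR mRNAs had little total RNA for their amount of new RNA, and a few had much. In wild type, the log2 of total over 4sU was below 0 in *Srsf10* (-1.73 ± 0.03, SD, n = 3), *Srsf5* (-1.73 ± 0.05), *Srsf2* (-1.65 ± 0.24), *Srsf6* (-1.49 ± 0.14), *Srsf3* (-1.31 ± 0.07), *Srsf7* (-1.06 ± 0.01) and *Srsf1* (-0.80 ± 0.04). It was above 0 in *Srsf9* (0.99 ± 0.24) and *Srsf11* (0.57 ± 0.09), and *Srsf4* lay near 0 (0.08 ± 0.18). By edgeR's quasi-likelihood test, 7 of the 10 had less total than 4sU RNA at an adjusted p below 0.05, against 38.6% of all tested genes, and 6 also passed an absolute log2 fold change of 1, against 27.1%. *Srsf9* and *Srsf11* had more, as did 41.1% of tested genes, and neither passed the threshold on fold, as 21.7% did. With both runs added, *Srsf10* was lowest of the 10, at the 19th percentile of tested genes, and *Srsf9* was at the 77.5th. The median of the 10 was -1.19 against 0.07 over all tested genes. With the single-end run alone *Srsf2* was lowest (-1.64), followed by *Srsf6* (-1.54), *Srsf5* (-1.45) and *Srsf10* (-1.42). With that run alone or with no filter beyond 1 count, 5 genes in place of 6 passed the threshold on fold. In *Ddx6* KO the same 7 were below 0 (41.2% of tested genes) and the same 2 above (41.0%), with a median of -1.04 against 0.01, and 6 of the 7 passed the threshold on fold (25.9%) but neither of the 2 (17.1%). The call of *Srsf1* in *Ddx6* KO (log2 -0.16) was lost with the paired-end run alone (-0.01, adjusted p = 0.80 by edgeR) and with no filter beyond 1 count (-0.03, adjusted p = 0.63), and with the single-end run alone or no such filter 4 genes in place of 6 passed the threshold on fold.

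**Figure D1:**
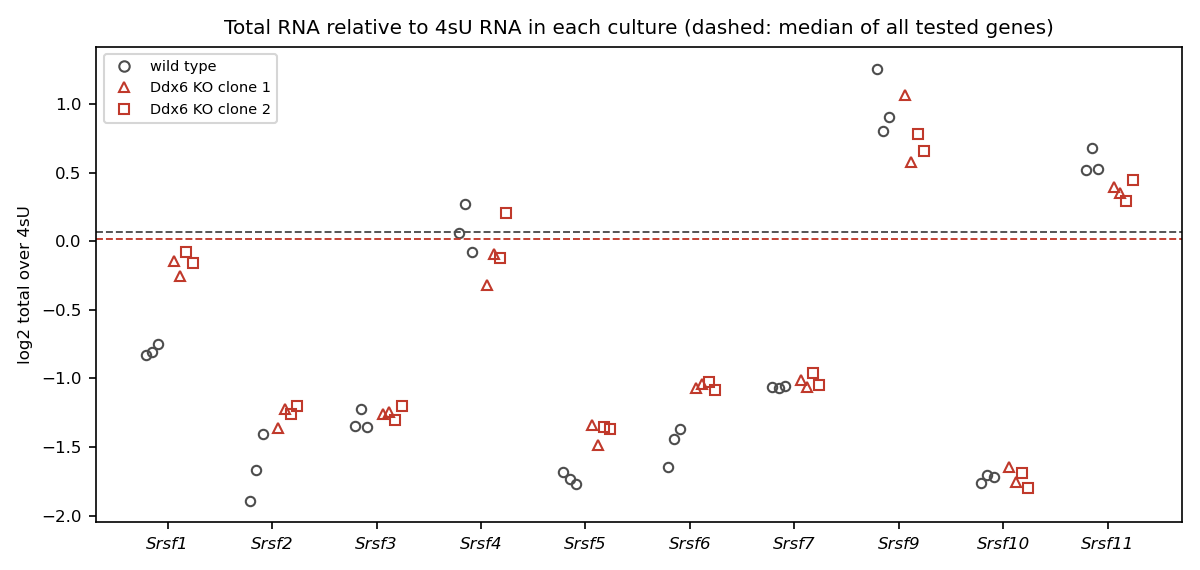
Log2 of total over 4sU level (TMM-scaled CPM, pseudocount 0.5) for each SR gene on the x axis, with a point per culture: wild type in grey circles, *Ddx6* KO clone 1 in red triangles and clone 2 in red squares; dashed lines are the medians over all tested genes in each genotype. *Srsf1*, *Srsf2*, *Srsf5* and *Srsf6* have all 4 KO cultures above all 3 wild-type cultures, while *Srsf3*, *Srsf7* and *Srsf10* overlap.

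The size of these ratios depended on the sequencing run, most of all for *Srsf3*, *Srsf5* and *Srsf10* in wild type. The 4sU libraries were sequenced first with single-end reads, as the total RNA libraries were, and again with read pairs. Over the 7 libraries, the paired-end run gave a higher 4sU level than the single-end run for *Srsf3* (log2 difference 0.69 ± 0.09, SD), *Srsf10* (0.60 ± 0.10) and *Srsf5* (0.54 ± 0.10), against a median of -0.17 over all tested genes. These 3 genes were also those with the largest share of 50-base stretches of their principal transcript found in transcripts of other loci, mostly predicted genes: 31.5% in *Srsf3*, 10% in *Srsf10* and 28.6% in *Srsf5*. In *Srsf7* that share was 0.9% and the run difference 0.05 ± 0.08, and in the other 6 genes the share was 0 and the difference between -0.47 and -0.09. Only uniquely mapped reads were counted, and the part of shared sequence in the run difference was not tested. With the single-end run alone, like for like with total RNA, the wild-type log2 ratio was -0.91 for *Srsf3*, -1.45 for *Srsf5* and -1.42 for *Srsf10*. With the paired-end run alone it was -1.72, -2.03 and -2.06. In *Ddx6* KO the ratio of other genes moved too, from -0.23 with the single-end run to -0.01 with the paired-end run for *Srsf1*, from 0.59 to 1.12 for *Srsf9* and from -0.19 to 0.16 for *Srsf4*. The changes between genotypes of these 3 genes, which compare libraries of the same kind, kept their calls with the single-end run alone, except the mRNA call of *Srsf5*, while with the paired-end run alone the nascent call of *Srsf10* was lost (log2 -0.12, adjusted p = 0.18 by edgeR).

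**Figure D2:**
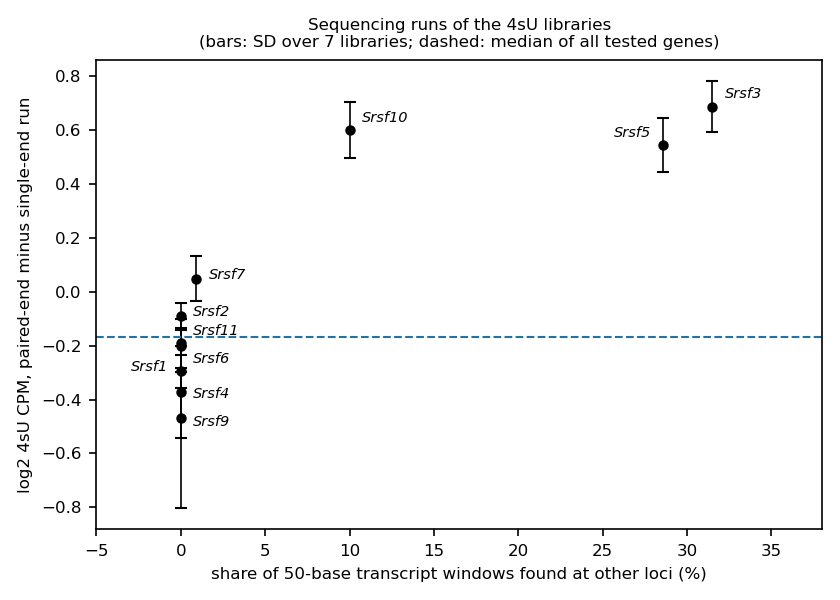
Difference of the log2 4sU CPM between the paired-end and the single-end run (y axis, mean and SD over 7 libraries, each run scaled to its own total) against the percent of 50-base windows of the principal transcript found at other loci (x axis), with a point per SR gene; the dashed line is the median over all tested genes, -0.17. *Srsf3*, *Srsf5* and *Srsf10* stand at 0.54 or above and the other 7 at 0.05 or below.

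New RNA of most SR genes was lower in *Ddx6* KO than in wild type. In the 4sU libraries, 8 of the 10 were lower in *Ddx6* KO than in wild type at an adjusted p below 0.05 (edgeR), against 21.0% of all tested genes. None was higher, with 0 also at an unadjusted p below 0.05 and 0 by DESeq2 and by limma-voom, against 20.6% of tested genes. The largest fall was in *Srsf1* and the smallest of the 8 in *Srsf11*. The same 8 genes had every KO culture below every wild-type culture, as did 21.2% of tested genes, and none had every KO culture above (20.5%). None of the 10 passed an absolute log2 fold change of 1, as 5.79% of tested genes did on the lower side and 5.14% on the higher side. The median change of the 10 was -0.39 on the log2 scale, against 0.0011 over all tested genes. In bulk RNA, fewer cells of a kind and less RNA per cell cannot be told apart.

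Total RNA of the SR genes fell less evenly. It was lower in *Ddx6* KO for 7 of the 10 at an adjusted p below 0.05, against 31.0% of all tested genes, and higher for 0 (0 also at an unadjusted p below 0.05, by DESeq2 and by limma-voom; 19.5% of tested genes). In 7 genes every KO culture lay below every wild-type culture, as in 32.0% of tested genes, and in none above (20.4%). None passed an absolute log2 fold change of 1, against 4.86% of tested genes on the lower and 5.28% on the higher side. The median change was -0.17, against -0.10 over all tested genes. *Srsf11*, *Srsf3*, *Srsf7* and *Srsf9* were 0.28, 0.26, 0.24 and 0.18 log2 units below that median, and *Srsf10*, *Srsf5* and *Srsf6* were within 0.08 units of it. The count was 5 with DESeq2, 4 with clone 1 only, and 3 with clone 2 only, with no filter beyond 1 count, with library size only and with TMM fitted by assay. Of 20 alternatives, the calls of *Srsf5* and *Srsf6* were lost in 15 each, that of *Srsf10* in 7 and that of *Srsf9* in 4.

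Total relative to 4sU RNA, the measure of stability, rose in 4 of the 10, *Srsf1*, *Srsf2*, *Srsf5* and *Srsf6*, at an adjusted p below 0.05 in the interaction of genotype and assay. Among all tested genes 3.78% rose by this measure and 8.60% fell. None of the 10 fell (0 by DESeq2 and by limma-voom, and 1, *Srsf11*, at an unadjusted p below 0.05), and none passed an absolute log2 fold change of 1 (0.689% of tested genes higher and 0.393% lower). Every KO culture lay above every wild-type culture in the same 4 genes (7.45% of tested genes) and below in *Srsf11* (15.5%). The median change was 0.05, against -0.09 over all tested genes. The stability change is the difference between the mRNA and the nascent change, and all 3 comparisons use the same libraries, so the 3 values of a gene are not separate evidence.

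**Figure D3:**
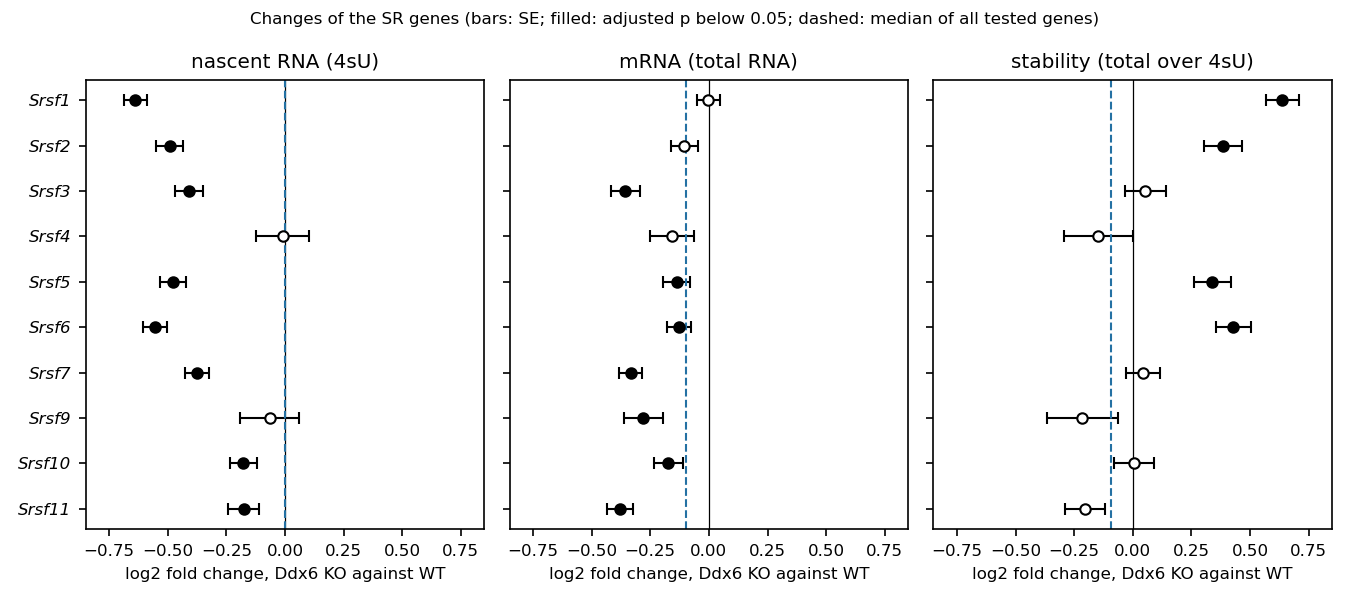
Log2 fold change of *Ddx6* KO against wild type for each SR gene (rows), with its SE, in 4sU RNA (left), total RNA (middle) and total over 4sU (right), from edgeR over 3 and 4 cultures; filled points have an adjusted p below 0.05 and dashed lines are the medians over all tested genes. New RNA is lower in 8 genes, total RNA in 7, and total over 4sU is higher in *Srsf1*, *Srsf2*, *Srsf5* and *Srsf6*.

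*Srsf1*, *Srsf4*, *Srsf5*, *Srsf6* and *Srsf9* encode the SR proteins with a pair of RNA recognition motifs. *Srsf1*, the founding member, which acts in constitutive and alternative splicing and in mRNA export and translation, had the largest changes. Its 4sU level was 1699.6, 1726 and 1726 CPM in wild type and 1098, 1138, 1081 and 1092 CPM in *Ddx6* KO. The groups were far apart, and new *Srsf1* RNA fell by 35.8% (log2 fold change -0.64, SE 0.049, adjusted p = 1.0e-16 by edgeR). In total RNA it was at 957, 985 and 1026.5 CPM in wild type and at 994, 955, 1026 and 979 CPM in *Ddx6* KO, so the groups overlapped completely. The log2 fold change of its mRNA was -0.0020 (SE 0.049, adjusted p = 0.98), with a 95% interval from -0.10 to 0.09. Scaled by library size only, that change was 0.15 and was called higher. Its log2 total over 4sU was -0.83, -0.81 and -0.75 in wild type and -0.14, -0.25, -0.08 and -0.16 in *Ddx6* KO. Every KO culture was above wild type, by 0.64 on average in the fit (SE 0.070, adjusted p = 8.8e-10). The rise was 0.60 with clone 1 only and 0.68 with clone 2 only, and the nascent change -0.60 and -0.65. This rise lay at the 93.5th percentile of tested genes.

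*Srsf6* and *Srsf5*, which bind purine-rich enhancers and are close relatives of *Srsf4*, also fell in new RNA and rose in total over 4sU. Whether their changes differ in size from those of *Srsf1* was not tested. In 4sU RNA *Srsf6* was at 1115, 1039.6 and 1006 CPM in wild type and at 736, 717, 711 and 701 CPM in *Ddx6* KO. *Srsf5* was at 749, 728 and 778 CPM in wild type and at 551, 574, 539 and 498 CPM in *Ddx6* KO. New RNA thus fell by 32.0% for *Srsf6* (log2 -0.56, SE 0.052, adjusted p = 1.3e-13 by edgeR) and by 28.1% for *Srsf5* (log2 -0.48, SE 0.055, adjusted p = 1.4e-10). In total RNA *Srsf6* was at 356, 383 and 389 CPM in wild type and at 351, 348, 349 and 329.7 CPM in *Ddx6* KO. *Srsf5* was at 234, 219 and 228 CPM in wild type and at 217, 204, 211 and 192 CPM in *Ddx6* KO. The KO cultures were lower than wild type in both genes, by a narrow margin, with log2 fold changes of -0.13 for *Srsf6* (SE 0.052, adjusted p = 0.039 by edgeR) and -0.14 for *Srsf5* (SE 0.057, adjusted p = 0.040). The log2 total over 4sU of *Srsf6* was -1.65, -1.44 and -1.37 in wild type and -1.07, -1.04, -1.03 and -1.09 in *Ddx6* KO. That of *Srsf5* was -1.68, -1.73 and -1.77 in wild type and -1.34, -1.49, -1.35 and -1.37 in *Ddx6* KO. Total over 4sU thus rose by 0.43 for *Srsf6* (SE 0.074, adjusted p = 3.1e-05) and by 0.34 for *Srsf5* (SE 0.079, adjusted p = 0.0022), with all 4 KO cultures above wild type in both.

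*Srsf4* and *Srsf9* were the genes of this kind with the fewest counts, and no change of their new RNA passed the test. In 4sU RNA *Srsf4* was at 78.0, 86.8 and 108 CPM in wild type and at 90.6, 96.4, 92.7 and 84.6 CPM in *Ddx6* KO. *Srsf9* was at 32.6, 42.6 and 38.2 CPM in wild type and at 27.4, 39.6, 39.4 and 39.1 CPM in *Ddx6* KO. The groups overlapped in both. The 95% intervals of the log2 fold change, -0.23 to 0.21 for *Srsf4* and -0.31 to 0.18 for *Srsf9*, are wide. For *Srsf9* the value turned on the run, being -0.36 (adjusted p = 0.17 by edgeR) with the paired-end run alone and 0.10 (adjusted p = 0.65) with the single-end run alone. Total RNA of *Srsf9* was at 78.7, 74.8 and 72.1 CPM in wild type and at 57.9, 59.2, 68.0 and 61.9 CPM in *Ddx6* KO, and fell by 17.7% (log2 -0.28, SE 0.083, adjusted p = 0.0038 by edgeR). *Srsf4* total RNA overlapped between the groups, at 81.5, 104.8 and 102 CPM in wild type and at 72.7, 90.3, 85.1 and 97.7 CPM in *Ddx6* KO (log2 -0.16, SE 0.094, adjusted p = 0.17). Neither gene changed in total over 4sU by the test, with log2 values of -0.15 for *Srsf4* (SE 0.15, adjusted p = 0.60) and -0.21 for *Srsf9* (SE 0.15, adjusted p = 0.40).

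*Srsf2*, *Srsf3* and *Srsf7* encode SR proteins with a lone RNA recognition motif. *Srsf2* (SC35) stays in the nucleus, where it also acts in release of paused RNA polymerase II. Its 4sU level was 1411, 1354.5 and 1303.5 CPM in wild type and 980.2, 972, 959 and 945 CPM in *Ddx6* KO. New *Srsf2* RNA fell by 28.9% (log2 -0.49, SE 0.057, adjusted p = 1.4e-10 by edgeR), far outside the spread of either group. Total RNA of *Srsf2* was at 379.9, 426 and 492 CPM in wild type, a wider spread than that of the KO cultures at 381, 416, 401 and 412 CPM, and the groups overlapped (log2 -0.11, SE 0.057, adjusted p = 0.12). Its log2 total over 4sU was -1.89, -1.67 and -1.40 in wild type and -1.36, -1.22, -1.26 and -1.20 in *Ddx6* KO. The highest wild-type culture thus came close to the lowest KO culture, and the rise of 0.39 (SE 0.081, adjusted p = 0.00061) was 0.28 without the lowest wild-type culture and 0.52 without the highest.

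*Srsf3*, the smallest SR protein, and *Srsf7*, which carries a zinc knuckle, both serve as adaptors for the export factor NXF1. With TMM over all libraries, new RNA and total RNA of these genes fell by like amounts. Relative to the median of all tested genes, the changes were -0.41 in new RNA and -0.26 in total RNA for *Srsf3*. For *Srsf7* they were -0.38 and -0.24. *Srsf3* was at 567, 541 and 599.5 CPM in 4sU RNA of wild type and at 459, 428, 452 and 376 CPM in *Ddx6* KO, and *Srsf7* was at 862, 892 and 839 CPM and at 667, 679, 665 and 652 CPM. In total RNA, *Srsf3* was at 223, 232 and 234 CPM in wild type and at 191, 180.3, 183 and 163 CPM in *Ddx6* KO, and *Srsf7* at 412, 425 and 403 CPM and at 330.3, 325, 341 and 315 CPM. No KO culture reached the wild-type range in either assay. For *Srsf3* the log2 fold change was -0.41 in new RNA (SE 0.060, adjusted p = 9.5e-08 by edgeR) and -0.36 in total RNA (SE 0.061, adjusted p = 1.7e-06). For *Srsf7* it was -0.38 (SE 0.051, adjusted p = 1.2e-08) and -0.33 (SE 0.051, adjusted p = 1.4e-07). Total over 4sU differed by 0.05 for *Srsf3* (95% interval -0.12 to 0.22) and by 0.04 for *Srsf7* (-0.10 to 0.18), with adjusted p = 0.77 and 0.78.

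*Srsf10* and *Srsf11* are the less typical members. *Srsf10* represses splicing when it loses its phosphates, as after heat shock, and *Srsf11* binds U2AF. In 4sU RNA *Srsf10* was at 422, 444 and 437 CPM in wild type and at 376, 386, 396 and 377 CPM in *Ddx6* KO, and *Srsf11* at 205, 191 and 205 CPM and at 180.5, 179, 187 and 163 CPM. Their new RNA fell least among the 8, with a log2 fold change of -0.18 in each (adjusted p = 0.0094 for *Srsf10* and 0.023 for *Srsf11* by edgeR). These calls were fragile: of 20 alternatives, that of *Srsf11* was lost in 9, among them each clone alone and each run alone, and that of *Srsf10* in 3, and both changed sign with library size only. Total RNA of *Srsf11* was at 295, 306 and 295 CPM in wild type and at 238, 228, 229 and 223 CPM in *Ddx6* KO. It fell by 23.2%, the most of the 10 in total RNA (log2 -0.38, SE 0.055, adjusted p = 4.1e-08). *Srsf10* total RNA was at 124, 136 and 133 CPM in wild type and at 120.2, 114, 122 and 108 CPM in *Ddx6* KO, and its log2 fold change was -0.17 (SE 0.061; adjusted p = 0.014 by edgeR). The log2 total over 4sU of *Srsf11* was 0.52, 0.68 and 0.53 in wild type and 0.39, 0.35, 0.29 and 0.45 in *Ddx6* KO. All 4 KO values were lower, but the change of -0.20 (SE 0.085) had an adjusted p of 0.11. For *Srsf10* it was 0.01 (SE 0.084, adjusted p = 0.98).

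**Figure D4:**
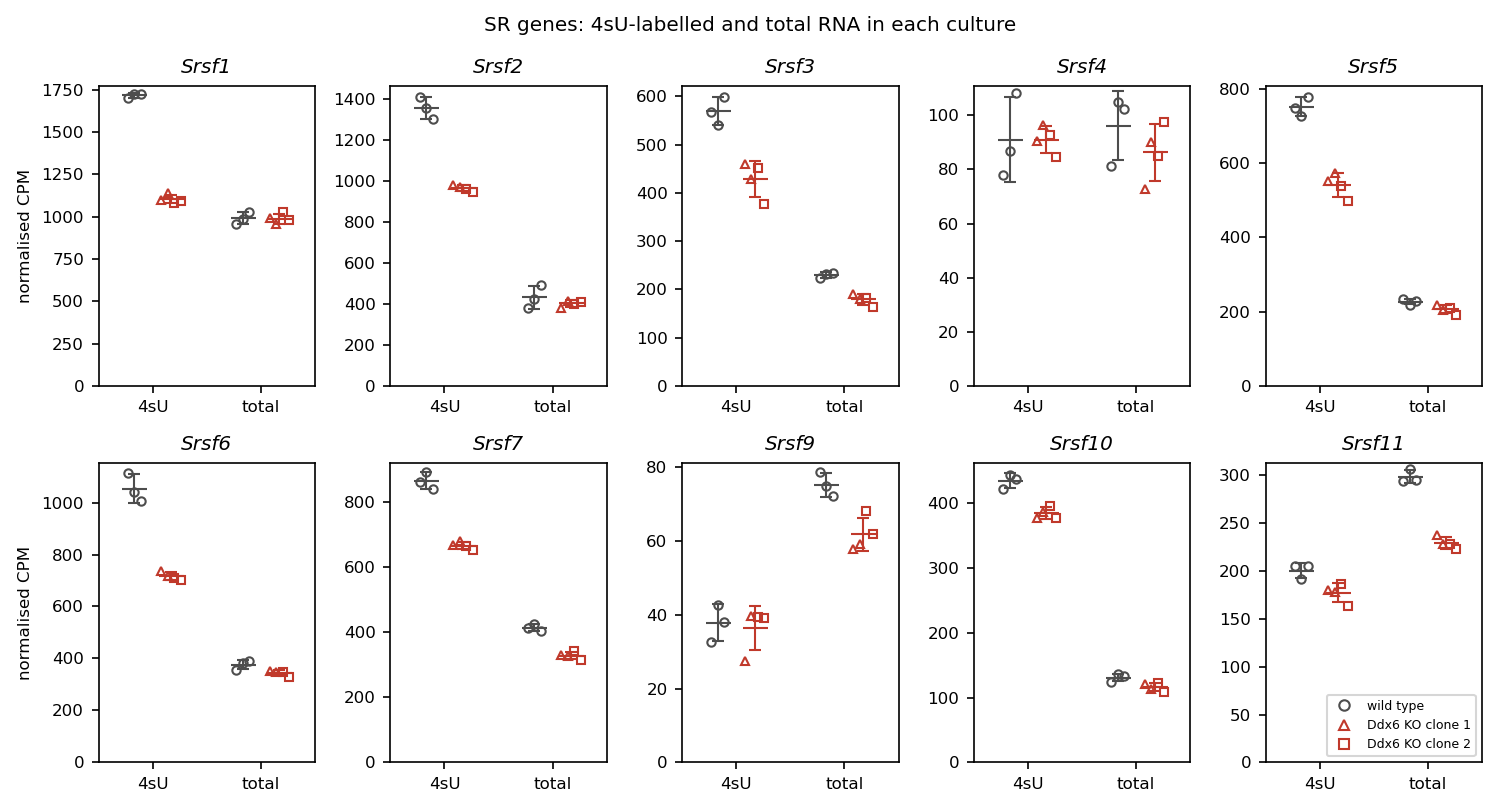
TMM-scaled CPM of each SR gene in the 4sU and total RNA libraries of each culture, on linear axes that start at 0 and differ between panels; grey circles are wild type (n = 3), red triangles and squares *Ddx6* KO clones 1 and 2 (n = 4), and bars are the group mean and SD. In *Srsf1* the 4sU level drops from 1717 to 1102 CPM on average while total RNA stays at 990 and 988 CPM, whereas in *Srsf7* both fall.

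In 4sU RNA both cultures of clone 2 lay below both of clone 1 for *Srsf1*, *Srsf2*, *Srsf5*, *Srsf6* and *Srsf7*. The gap was smaller than the distance of either clone to wild type. The share of all tested genes with such an order was not computed, so it is not read as a difference between clones. Of 30 comparisons of clone 2 with clone 1, for 10 genes in 4sU RNA, in total RNA and in their ratio, 0 had an adjusted p below 0.05 by edgeR, 0 had an unadjusted p below 0.05, and the largest absolute difference was 0.24 on the log2 scale. Over all tested genes 0.172%, 0.296% and 0.00689% were called different between clones in the same 3 measures, and with 2 cultures a clone a small difference was not detectable. For a lone value per culture, an exact permutation test of 3 against 4 cultures cannot give a two-sided p below 0.0571.

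How new RNA was scaled mattered for the smaller changes. Without TMM, scaling by library size only moved the median nascent change of all tested genes from 0.0011 to 0.21 and the median mRNA change from -0.10 to 0.06. A scaling moves all genes alike, so the distance from that median, 0.64 for *Srsf1* and 0.18 for *Srsf10* and *Srsf11*, is fixed by construction. The change itself was -0.43 for *Srsf1* and 0.03 for *Srsf10* and *Srsf11* under that scaling, and 6 genes were called lower in new RNA. The 4 rises in total over 4sU were called under every one of 21 alternatives.

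Genes around the SR proteins are given by list, and no difference between a list and the SR genes was tested. The shares to read them against are those of all tested genes, of which 20.6% rose and 21.0% fell in new RNA, 19.5% and 31.0% in total RNA, and 3.78% and 8.60% in total over 4sU. Of the 9 tested genes for SR kinases and import, 3 rose in new RNA and none fell, and 5 rose and 3 fell in total RNA, a share of falls near that of all genes (edgeR, adjusted p below 0.05). In total over 4sU, 0 rose and 2 fell, with a median of -0.16. *Tnpo3*, the importin that carries SR proteins into the nucleus, rose in new RNA (log2 0.82, SE 0.076, adjusted p = 1.3e-13) and in total RNA (0.38, SE 0.059, adjusted p = 2.0e-07), and fell in total over 4sU (-0.43, SE 0.097, adjusted p = 0.0013). It lies on chromosome 6, whose 735 tested genes had a median nascent change of 0.53 and a median mRNA change of 0.43, against -0.02 and -0.12 for the other chromosomes. The KO and wild-type cultures thus differed over this chromosome too. None of the 10 SR genes lies on chromosome 6, and the part of this difference in their changes was not tested. *Prpf4b*, a kinase of the pre-mRNA splicing machinery, fell in total over 4sU by 0.28 (SE 0.091, adjusted p = 0.030).

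SR-related proteins, which carry arginine-serine stretches but are not classical SR proteins, included genes that rose and genes that fell. Of 26 tested, 8 rose (20.6% of all tested genes) and 6 fell (21.0%) in new RNA, with a median of 0.03, and 2 rose (19.5%) and 14 fell (31.0%) in total RNA, with a median of -0.16. In total over 4sU 1 rose (3.78%) and 8 fell (8.60%), and the median was -0.19. The riser was *Rsrp1* (log2 0.37, SE 0.099, adjusted p = 0.0085 by edgeR), whose new RNA fell by 0.84. The largest falls were in *Nktr*, a cyclophilin with arginine-serine repeats (-0.69, SE 0.11, adjusted p = 5.5e-06), and in *Tra2a*, a splicing activator of chromosome 6 (-0.62, SE 0.088, adjusted p = 6.0e-07). In both, new RNA rose, by 0.62 and 0.45.

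The hnRNPs and related repressors, which often oppose SR proteins at the same exons, had more falls than rises in new RNA. Of 28 tested, 17 fell (21.0% of all tested genes) and 6 rose (20.6%), with a median of -0.21, and in total RNA 18 fell (31.0%) and 3 rose (19.5%), with a median of -0.22. In total over 4sU 3 rose (3.78%) and 5 fell (8.60%), and the median was -0.0020. The largest rises were in *Ptbp1*, a repressor that also limits its own expression through NMD (0.31, SE 0.074, adjusted p = 0.0026 by edgeR), and in *Hnrnpdl* (0.30, SE 0.079, adjusted p = 0.0063). Their new RNA fell by 0.60 and 0.51. The largest falls were in *Hnrnpll* (-0.39, SE 0.12, adjusted p = 0.022) and *Hnrnph2* (-0.38, SE 0.12, adjusted p = 0.022).

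Among genes that act with SR proteins, the list of U1, U2AF and SF3 partners held 16 tested genes, of which 15 fell (31.0% of all tested genes) and 0 rose (19.5%) in total RNA, with a median of -0.30. In new RNA 6 fell (21.0%) and 1 rose (20.6%), with a median of -0.13. In total over 4sU 5 fell (8.60%) and 0 rose (3.78%), led by *Sf3a2* (-0.48, SE 0.13, adjusted p = 0.0095 by edgeR) and *Sf3b1* (-0.45, SE 0.080, adjusted p = 4.3e-05), both of the complex that holds U2 at the branch point. Of 9 genes of the exon junction complex and export, 7 fell (21.0%) and 0 rose (20.6%) in new RNA, with a median of -0.37. In total RNA 6 fell (31.0%) and 1 rose (19.5%), with a median of -0.30. In total over 4sU 1 rose (3.78%), *Ddx39b*, and 1 fell (8.60%), *Alyref*, with a median of 0.07. *Ddx39b*, the helicase that loads export factors on mRNA, fell in new RNA but passed no test in total RNA: its new RNA fell by 0.53 (SE 0.057, adjusted p = 1.6e-11), its total RNA differed by -0.10 (SE 0.054, adjusted p = 0.13) and total over 4sU rose by 0.43 (SE 0.078, adjusted p = 7.7e-05). *Alyref*, an export adaptor, fell in total over 4sU by 0.25 (SE 0.086, adjusted p = 0.041).

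Of the 10 NMD factors, through which the unproductive SR transcripts are removed, 3 fell (21.0% of all tested genes) and 1 rose (20.6%) in new RNA, 5 fell (31.0%) and 0 rose (19.5%) in total RNA, and 1 rose (3.78%) and 2 fell (8.60%) in total over 4sU. *Smg5*, which recruits decay enzymes to phosphorylated UPF1, rose by 0.42 in total over 4sU (SE 0.094, adjusted p = 0.0014 by edgeR). *Smg1*, the kinase of UPF1, fell by 0.48 (SE 0.091, adjusted p = 0.00013), and *Upf2*, which activates UPF1, fell by 0.42 (SE 0.11, adjusted p = 0.0061). In total RNA *Smg1* fell by 0.53 (adjusted p = 8.1e-12) and *Upf2* by 0.41 (adjusted p = 3.1e-06). None of the genes of the 6 lists passed an absolute log2 fold change of 1 in any of the 3 comparisons. Of the cell type markers, *Sox2* rose by 0.60 in total over 4sU (adjusted p = 4.0e-08 by edgeR) and *Klf4* by 0.34 (adjusted p = 0.0033), and *Pou5f1* fell by 0.25 (adjusted p = 0.036). *Thy1* rose by 1.47 in total RNA (adjusted p = 2.0e-06), from a mean near the filter, 2.54 CPM in wild type and 7.11 CPM in *Ddx6* KO. Its new RNA differed by 0.96 (adjusted p = 0.055). Of the 6 feeder markers, 2 passed the filter.

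**Figure D5:**
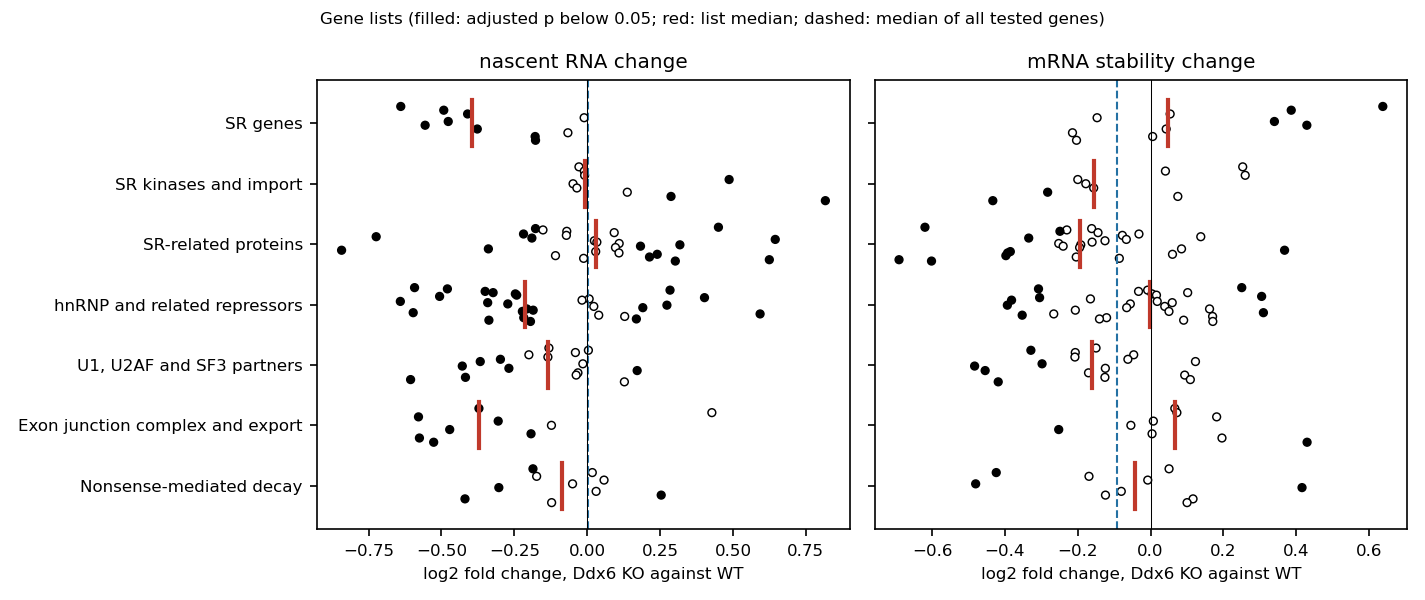
Log2 fold change of *Ddx6* KO against wild type in new RNA (left) and in total over 4sU (right) for every tested gene of 7 lists (rows), with filled points at an adjusted p below 0.05 by edgeR, the list median in red and the median over all tested genes dashed. The median of the SR genes is -0.39 in new RNA and 0.05 in total over 4sU, that of the SR-related proteins 0.03 and -0.19.

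The genes whose levels over the 14 libraries were most like the mean standardised profile of the SR genes, among 8033 other genes with a mean of at least 20 CPM, were *Hist2h4* (Pearson r = 0.992), *Slc3a2* (0.987), *Taf7* (0.987), *Gm14412* (0.986) and *Aunip* (0.985). The 14 libraries share assay and genotype, and the values are a description. Of the SR genes, *Srsf7* (0.957) and *Srsf3* (0.952) were closest to their own mean profile, while *Srsf9* (-0.68) and *Srsf11* (-0.46) ran against it and *Srsf4* (0.29) followed it weakly.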

How the data were processed

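The deposited values were raw counts per gene, of single-end reads for all 14 libraries and of read pairs for a second run of the 7 4sU libraries. Per the labels and file headers, the authors' pipeline was Cutadapt 1.14 for trimming, STAR 2.5.3a on mm10 with uniquely mapped reads kept, and stranded featureCounts 1.5.3 over basic Gencode M14 exons without rRNA genes. The deposited exon lengths in bases, another column of the tables, were used for levels per kb.

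Here a 4sU library's runs were added, as the methods merged them. The 92 spike-in rows were left out. Genes reaching 3 CPM before scaling in 3 or more libraries were kept and scaled by TMM. They were tested in edgeR 4.0.16 (R 4.3.3) with robust quasi-likelihood fits of genotype and assay with their interaction. Clones were pooled in the KO group, and p-values measure the spread between libraries of a group. The labels do not say whether the cultures were grown separately. A culture's 4sU and total library were fitted as separate, so the SE of a stability change is not the spread of the culture ratios. With a culture block, the same 4 genes were called to rise in total over 4sU. Adjustment was by the Benjamini-Hochberg method within each comparison over all 14518 genes. Ratios per culture are log2(total CPM + 0.5) minus log2(4sU CPM + 0.5), so that ratios of low genes are drawn toward 0. Fold changes came from the fit to counts, where this 0.5 is not added, and 95% intervals are 1.96 SE on either side. Floors of 3 counts cover counting error only. Annotation and sequences came from Gencode M21. The code was tested on simulated data. The labels' replicate numbers were checked by the deviations of same-numbered cultures from their group means. These correlated between -0.071 and 0.0999 over 12 pairs, under a cut-off of 0.1, so the numbers were not treated as pairs. A clone's 2 cultures deviate as mirror images, so the 12 values are not separate checks, and a weak pairing could be missed.

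The SR genes and the other lists were chosen with earlier results of these data known. From each other list, the text names up to 2 genes with the largest rise and 2 with the largest fall in total over 4sU at an adjusted p below 0.05 and any gene that also passed a log2 fold change of 1 in a comparison. Alternatives were DESeq2 1.42.0, limma-voom (limma 3.58.1), other scalings, no filter beyond 1 count, each run, each clone, each culture left out, replicate or culture blocks, no chromosome 6 genes and protein-coding genes only.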

Additional observations from a re-analysis of the deposited data

Results flagged for a closer look

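Among the 4 *Ddx6* KO cultures, 30 sets of values were screened for a culture far from the other 3 (10 SR genes in 4sU RNA, in total RNA and in their ratio), and chance alone gives about 1.5 such sets. There were 2. Total RNA of *Srsf6* in the second culture of clone 2 was 329.7 CPM, against 348 to 351 CPM in the other 3. The 4sU level of *Srsf9* in the first culture of clone 1 was 27.4 CPM, against 39.1 to 39.6 CPM in the others, from 97 counts in that library. Without the first of these cultures the mRNA change of *Srsf6* was -0.10, and without the second the nascent change of *Srsf9* was 0.05 in place of -0.07.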

How the results depend on the processing

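Beside the fit reported, 21 alternatives were run (20 for new and total RNA alone), which gave 1030 values for the SR genes: 923 kept direction and side of the threshold, 55 lost a call, 4 gained one and 48 changed sign. The stability rises of *Srsf1*, *Srsf2*, *Srsf5* and *Srsf6* were called throughout. The number of genes lower in new RNA, 8, ranged from 6 to 8. The number lower in total RNA, 7, was 3 with TMM within each assay, with library size only, with no filter beyond 1 count and with clone 2 only, 4 with clone 1 only, and 4 to 8 with a culture left out, being 4 without the second culture of clone 2; library size only gave 1 higher. Library size only also gave 1 gene lower in stability, *Srsf11* (-0.25, adjusted p = 0.034 by edgeR). *Srsf9* passed both thresholds for more total than 4sU RNA in wild type (1 gene) with no filter beyond 1 count and with the re-sequencing run only, and with the latter also in *Ddx6* KO (1 gene); with a culture left out the wild-type count was 0 to 1.

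Library size only turned the called nascent falls of *Srsf10* and *Srsf11* and the called mRNA falls of *Srsf5* and *Srsf6*. The other sign changes were of values uncalled in the fit reported. Of these, the mRNA change of *Srsf1* was called higher with library size only. The mRNA change of *Srsf1* was 0.022 with DESeq2 and with its size factors in edgeR, 0.090 with TMM within each assay, 0.00045 with clone 1 only, 0.033 with clone 2 only, 0.15 with library size only, 0.099 with no filter beyond 1 count, 0.015 with protein-coding genes only, 0.014 with the replicate block, 0.0093 with the single-end run, 0.027 without chromosome 6 and -0.027 to 0.023 with a culture left out. With library size only, the nascent change was 0.026 for *Srsf10*, 0.027 for *Srsf11*, 0.19 for *Srsf4* and 0.14 for *Srsf9*, the mRNA change 0.051 for *Srsf2*, 0.019 for *Srsf5* and 0.030 for *Srsf6*, and the stability change -0.043 for *Srsf10* and -0.0058 for *Srsf7*. The nascent change of *Srsf4* was 0.044 with clone 1 only and with no filter beyond 1 count, 0.086 with the replicate block, 0.059 with the single-end run, 0.012 without chromosome 6 and -0.11 to 0.13 with a culture left out. That of *Srsf9* was 0.054 with clone 2 only, 0.096 with the single-end run and -0.16 to 0.051 with a culture left out. With the re-sequencing run only, the stability change was -0.057 for *Srsf10*, -0.0088 for *Srsf7* and 0.074 for *Srsf9*, and *Srsf10* also gave -0.0080 with clone 2 only and -0.014 to 0.034 with a culture left out. The total over 4sU ratio of *Srsf4* in wild type was -0.036 with DESeq2, -0.037 with its size factors, -0.19 with protein-coding genes only and -0.039 to 0.17 with a culture left out, and in *Ddx6* KO it was 0.053 with no filter beyond 1 count and 0.16 with the re-sequencing run. The causes were not tested.

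The replicate numbers were not treated as pairs. With them as a block, 8, 6 and 4 genes were called in new RNA, total RNA and stability. *Srsf5* was lost in total RNA (-0.12, adjusted p = 0.079 by edgeR). The mRNA calls of *Srsf5* and *Srsf6* were each lost in 15 of 20 alternatives, beside the change of sign with library size only. Depth limits *Srsf9* most, with 74 to 149 counts per 4sU library, and 2 clones limit what the KO group stands for.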

Other observations

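Promoter windows of 300 bases (250 before to 50 after the start, RefSeq annotation on GRCm38.p6) were found for all 10 SR genes, in 13 windows with a GC content between 56.0% and 78.3% and a median of 69.0%, against a median of 61.0% over 12813 windows of 10041 tested genes. A GC box (GGGCGG, either strand) was in a window of 9 of the 10 genes, against 69.8% of the tested genes. The CREB motif core TGACG was in 7 of 10 genes (35.3% of tested genes), CCAAT in 4 of 10 (43.6%), TATAAA in 2 of 10 (8.44%) and the E-box CACGTG in 0 of 10 (12%). All motifs were searched on both strands, TGACG and CACGTG can share letters, and a match is no evidence of binding. The 250 bases before the start of *Srsf1*, the gene with the largest fall in new RNA, are given with the matches to TGACG and GGGCGG in capitals, both on the opposite strand, at 94 and 82 bases before the start (chr11:88047123-88047372, plus strand).

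Srsf1: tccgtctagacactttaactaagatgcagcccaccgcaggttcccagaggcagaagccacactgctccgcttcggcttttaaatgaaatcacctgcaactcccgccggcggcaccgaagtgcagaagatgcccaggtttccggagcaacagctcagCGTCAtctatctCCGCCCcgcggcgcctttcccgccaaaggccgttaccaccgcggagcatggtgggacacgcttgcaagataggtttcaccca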
